A study of Mus musculus with 8 samples.

Results

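Immunoglobulin chain genes were followed through 8 RNA libraries of bone marrow-derived macrophages (BMDM), which are macrophages grown from mouse bone marrow cells. The group holds the constant (C) and variable (V) region genes of the heavy, kappa and lambda chains. Genes were taken by symbol from the heavy, kappa and lambda families, and a gene was kept with at least 20 counts summed over the 8 libraries. That left 70 genes of 361 whose symbol belongs to these families and of 55401 genes in the table. The total count chose them, so that total is a description and was not tested. Just inside the limit were Ighv1-9 and Iglv2 with 21 counts each and Ighv8-12, Ighv1-80 and Igkv6-17 with 22 each, and just outside it were Ighv2-6, Ighv5-6 and Igkv1-122 with 19 each. The 70 genes were 6 of 8 heavy constant genes, the single kappa constant gene Igkc, 3 of 4 lambda constant genes, 23 of 185 heavy V genes, 35 of 160 kappa V genes and 2 of 3 lambda V genes. They held 32577 counts in all, and the other genes of these families held 470.

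All mice carried floxed alleles of Mettl3, the catalytic subunit of the enzyme that writes N6-methyladenosine on mRNA. KO macrophages (Lyz2-Cre-Mettl3fl/fl) expressed Cre from the myeloid promoter of Lyz2, and WT macrophages (Mettl3fl/fl) had no Cre, so an effect of Cre itself and of the deletion cannot be told apart. Stimulated cells received LPS at 50 ng/ml overnight and then 10 µM nigericin, which opens the membrane to potassium and triggers the NLRP3 inflammasome, for 3 h per the sample labels, and the other cells received PBS. The 4 groups were KO stimulated, KO PBS, WT stimulated and WT PBS, with 2 libraries each, and age, sex and strain background are not given in the labels. The labels do not tie the libraries of a group to separate mice or cultures, so each p-value rests on a spread between libraries that may be technical. Libraries held 55032057 to 65487739 counts. Mettl3 had 502 and 517 counts in the KO stimulated libraries, against 1549 and 1360 in the WT stimulated libraries. With PBS it had 331 and 395 counts in KO libraries and 884 and 887 in WT libraries. The log2 differences, KO minus WT, were -1.61 ± 0.14 (SE) after stimulation and -1.17 ± 0.14 with PBS, with adjusted p = 0.00283 and 0.0143 (edgeR's quasi-likelihood test with Benjamini-Hochberg adjustment over 17470 genes, called "adjusted p" from here on).

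An antibody is built of paired heavy and light chains. Each chain joins a variable domain, which binds antigen and is assembled in a B cell from V, joining and, for heavy chains, diversity segments, to a constant domain, which sets the class. Ighm encodes the heavy chain of IgM, the class a B cell makes first. Class switching replaces it with the gamma chains of IgG (Ighg1, Ighg2b, Ighg2c, Ighg3), the alpha chain of IgA (Igha) or the epsilon chain of IgE (Ighe). Plasma cells, the antibody-secreting end stage of the B lineage, live in bone marrow and devote much of their mRNA to a rearranged heavy and a rearranged light chain. Macrophages bind antibody through Fc receptors and are not known for making it. The heavy locus lies on chromosome 12, with the constant genes at 113254830 to 113422730 and the V genes at 113572927 to 116010093. The kappa locus lies on chromosome 6, with the V genes at 67555497 to 70704177 and Igkc at 70726435 to 70726966, and the lambda locus on chromosome 16 (GRCm38).

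How far a read can tell these genes apart depends on their sequence, so 2 sets are shown. The first is the start of the first coding exon of the gamma constant genes, which include Ighg2b, the gene with the smallest adjusted p between the genotypes among the 47 immunoglobulin genes tested. It covers 60 bases on the minus strand of chromosome 12, at chr12:113307874-113307933 (Ighg2b), chr12:113288873-113288932 (Ighg2c), chr12:113330464-113330523 (Ighg1) and chr12:113361173-113361232 (Ighg3). Sequences are GENCODE M21 transcripts (GRCm38), written 5′ to 3′ along the transcript, and capitals mark the 22 positions at which the 4 genes are not all alike.
Ighg2b: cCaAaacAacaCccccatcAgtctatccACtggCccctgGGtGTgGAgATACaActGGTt
Ighg2c: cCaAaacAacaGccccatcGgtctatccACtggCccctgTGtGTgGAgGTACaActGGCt
Ighg1: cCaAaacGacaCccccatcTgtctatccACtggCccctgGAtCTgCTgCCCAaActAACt
Ighg3: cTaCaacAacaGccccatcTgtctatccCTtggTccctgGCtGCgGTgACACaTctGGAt

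Ighg2b and Ighg2c differed at 5 of these 60 bases, Ighg2b and Ighg1 at 13, Ighg2b and Ighg3 at 13, and Ighg1 and Ighg3 at 18. Over the whole transcripts the longest identical stretch was 78 bases for Ighg2b and Ighg2c and 88 bases for Ighg2b and Ighg3. Of all 50-base stretches of Ighg2b, 4.15% also occurred in another immunoglobulin gene, against 5.49% for Ighg2c, 1.58% for Ighg3 and 0.393% for Ighg1. Ighm, Igha and Igkc shared none.

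The second set is the first 120 bases of the V exon of the 4 kappa V family 1 genes in the group, shown because it holds the V genes with the most counts and one near-identical pair. They lie on chromosome 6 at chr6:67610196-67610315 (Igkv1-135, plus strand), chr6:68270955-68271074 (Igkv1-110, plus strand), chr6:68121515-68121634 (Igkv1-117, plus strand) and chr6:68862458-68862577 (Igkv1-88, minus strand). Capitals mark the 39 positions at which they are not all alike.
Igkv1-135: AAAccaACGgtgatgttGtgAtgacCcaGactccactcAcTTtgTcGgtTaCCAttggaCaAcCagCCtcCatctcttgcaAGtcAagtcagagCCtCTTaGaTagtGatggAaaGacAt
Igkv1-110: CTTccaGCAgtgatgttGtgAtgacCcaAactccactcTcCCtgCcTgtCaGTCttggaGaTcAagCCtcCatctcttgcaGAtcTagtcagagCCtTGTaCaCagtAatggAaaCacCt
Igkv1-117: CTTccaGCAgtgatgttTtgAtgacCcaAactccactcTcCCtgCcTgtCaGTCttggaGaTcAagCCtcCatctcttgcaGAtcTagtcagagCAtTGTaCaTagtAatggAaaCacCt
Igkv1-88: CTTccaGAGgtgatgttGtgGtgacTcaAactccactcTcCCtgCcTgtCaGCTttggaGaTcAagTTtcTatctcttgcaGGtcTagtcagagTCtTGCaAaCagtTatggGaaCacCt

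Igkv1-110 and Igkv1-117 differed at 3 of 120 bases and shared an identical stretch of 142 bases, so counts of this pair may have been split or swapped by the counting. Igkv1-135 differed from Igkv1-110 at 28 bases and from Igkv1-88 at 34. Among the kappa V genes a median of 24.4% of 50-base stretches occurred in another immunoglobulin gene, with a maximum of 74.3%, and among the heavy V genes a median of 18.9%, with a maximum of 57.6%. Counts of single V genes are therefore less certain than those of Ighm, Igha and Igkc. No V pseudogene was among the 70 genes, and the 130 annotated V pseudogenes held 12 counts in all, against 5016 for the 218 other V genes.

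KO libraries held more antibody chain RNA than WT libraries under both treatments, with and without Ighm. The 69 genes other than Ighm summed to 83.7 and 76.9 CPM (counts relative to the scaled total of the library) in KO stimulated libraries, 62.2 and 65.2 in KO PBS, 10.7 and 13.6 in WT stimulated and 8.01 and 4.59 in WT PBS. All 4 KO libraries lay above all 4 WT libraries. With Ighm included the sums were 97.0 and 88.5 CPM in KO stimulated libraries, 90.3 and 101 in KO PBS, 15.8 and 20.9 in WT stimulated and 59.6 and 57.6 in WT PBS. In that sum the WT PBS libraries lay between the KO and the WT stimulated libraries. Ighm made up 13.7% and 13.1% of the immunoglobulin counts in KO stimulated libraries, 31.2% and 35.4% in KO PBS libraries and 32.6% and 35.0% in WT stimulated libraries. In the WT PBS libraries it made up 86.5% (95% exact binomial interval 85.4 to 87.6) and 92.0% (91.1 to 92.9). In bulk RNA, fewer cells of a type and less RNA per cell cannot be told apart.

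Over all tested genes, 2.91% were called higher and 2.01% lower in KO than in WT after stimulation, and 1.2% higher and 0.355% lower with PBS. Of the 70 immunoglobulin genes, 47 passed the filter on low counts, 10 constant and 37 V genes, and 23 did not. Of these 47, 8 were called higher and 0 lower in KO after stimulation (Ighm, Igkc, Ighg2b, Igha, Igkv1-135, Igkv1-110, Igkv10-94 and Igkv2-137). With PBS, 7 were called higher and 0 lower (Igkc, Ighg2b, Ighg1, Igkv1-135, Igkv1-110, Igkv2-137 and Iglc1). At an unadjusted p under 0.05 the counts were 27 higher and 1 lower after stimulation and 21 higher and 1 lower with PBS, where the shares of all tested genes were 10.6% higher and 9.22% lower after stimulation and 8.68% higher and 6.71% lower with PBS. Over all 70 genes, 18 had every KO library above every WT library in CPM and 0 the reverse. Of the 19305 genes of the table with a total of at least 20 counts, 2.81% had every KO library above every WT library and 1.9% the reverse. A gene that reached the filter through its KO counts alone had to differ, and these members were chosen with earlier results of the same libraries known, so nothing is read from these counts.

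Ighg2b, the constant gene of the IgG2b heavy chain (chromosome 12, 113302965 to 113307933, minus strand), had the smallest adjusted p of the 47 in both genotype comparisons. It had 1054 and 1145 counts in KO stimulated libraries and 1084 and 1099 in KO PBS libraries, against 30 and 7 in WT stimulated libraries and 0 in both WT PBS libraries. As levels these were 18.2 ± 1.16 CPM (SD, n = 2) in KO stimulated, 18.0 ± 0.600 in KO PBS and 0.333 ± 0.301 in WT stimulated cells. The 4 KO libraries stood within a narrow range and far above every WT library. The log2 difference, KO minus WT, was 5.78 ± 0.53 (SE) after stimulation (adjusted p = 0.00601). With PBS Ighg2b was at least 791-fold higher in KO, with the empty WT group set to 3 counts in all (adjusted p = 0.00508). Ighg2b passed the filter on low counts through its KO libraries alone, so both p-values are a description and no support for the difference. Both calls held without any single library, with adjusted p up to 0.0407 after stimulation and 0.0287 with PBS.

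The other gamma genes were also counted mainly in KO libraries, with fewer counts. Ighg1 (chromosome 12, 113325240 to 113330523) had 146 and 112 counts in KO stimulated libraries and 67 and 166 in KO PBS libraries, against 26 and 48 in WT stimulated libraries and 0 in both WT PBS libraries. Every KO library lay above every WT library. With PBS it was at least 84.4-fold higher in KO (adjusted p = 0.0185, and up to 0.0679 without KO PBS library 2, WT PBS library 1 or WT PBS library 2, each of which ended the call). After stimulation the log2 difference was 1.74 ± 0.54 and did not pass (adjusted p = 0.155). Ighg2c (113285325 to 113288932) had 95 and 276 counts in KO stimulated libraries and 186 and 188 in KO PBS libraries, against 23 and 0 in WT stimulated libraries and 8 and 0 in WT PBS libraries. The groups did not overlap, but neither comparison passed, with log2 differences of 3.83 ± 1.26 after stimulation (adjusted p = 0.154) and 5.62 ± 1.45 with PBS (adjusted p = 0.134). Ighg3 (113356224 to 113361232) had 64 and 53 counts in KO stimulated libraries and 0 in the other 6 libraries. It was at least 36.5-fold higher in KO than in WT stimulated cells (adjusted p = 0.0564).

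Igha, the constant gene of the IgA heavy chain (113254830 to 113260236), was one of 3 genes with counts in all 8 libraries, beside Ighm and Igkc. Its level was 8.27 and 9.42 CPM in KO stimulated libraries and 4.31 and 4.21 in KO PBS libraries, against 0.764 and 1.72 in WT stimulated libraries and 1.41 and 1.14 in WT PBS libraries. All KO libraries were above all WT libraries. The log2 difference was 2.83 ± 0.36 after stimulation (adjusted p = 0.00995, and up to 0.0544 without KO stimulated library 1 or 2, either of which ended the call). With PBS it was 1.74 ± 0.35 and did not pass (adjusted p = 0.0750).

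Ighm, the IgM heavy chain (113418558 to 113422730), did not follow the other chains. Its level was 13.2 and 11.6 CPM in KO stimulated libraries, 28.2 and 35.8 in KO PBS, 5.16 and 7.30 in WT stimulated and 51.5 and 53.0 in WT PBS. WT PBS libraries were the highest and WT stimulated libraries the lowest, with both KO groups between them. KO exceeded WT after stimulation by 0.99 ± 0.19 on the log2 scale (adjusted p = 0.0364). That call was lost without KO stimulated library 1 or 2, WT stimulated library 1 or either WT PBS library, with adjusted p up to 0.177. With PBS the sign was the other way, a log2 difference of -0.71 ± 0.18 that did not pass (adjusted p = 0.138), although the groups did not overlap. Ighd, which lies beside Ighm and is transcribed with it in mature B cells, and Ighe had 0 counts in all 8 libraries. A count of 0 allows up to 3 counts, which is 0.0451 to 0.0546 CPM by library.

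**Figure D1:**
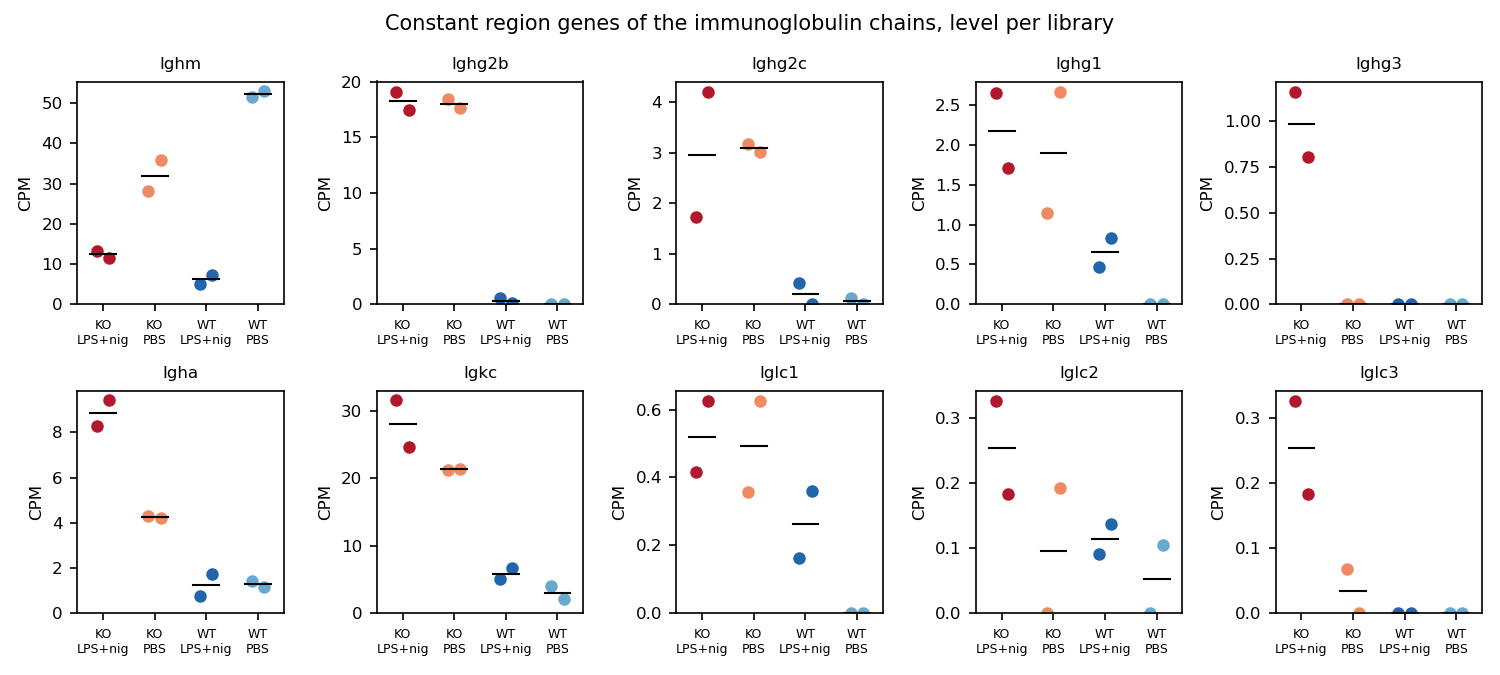
Level of the 10 constant region genes in CPM (y axis, its own scale per gene, starting at 0) in each library, with 2 points per group and a line at the mean. Ighg2b lay between 17.4 and 19.1 CPM in all 4 KO libraries and at or below 0.546 in all 4 WT libraries, while Ighm was highest in the WT PBS libraries, at 51.5 and 53.0 CPM.

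Igkc, the single kappa constant gene, was higher in KO under both treatments. Its level was 31.6 and 24.7 CPM in KO stimulated libraries and 21.3 and 21.4 in KO PBS libraries, against 5.09 and 6.69 in WT stimulated libraries and 4.01 and 2.12 in WT PBS libraries. Every KO library was above every WT library. The log2 difference was 2.25 ± 0.30 after stimulation (adjusted p = 0.0114, up to 0.0682 without KO stimulated library 1 or WT stimulated library 1, which ended the call). With PBS it was 2.80 ± 0.31 (adjusted p = 0.0120, up to 0.0621 without KO PBS library 1 or 2, which ended the call).

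Lambda chains were a small part of the light chains in every library. Iglc1 (chromosome 16, 19061618 to 19062071) had 23 and 41 counts in KO stimulated libraries, 21 and 39 in KO PBS, 9 and 21 in WT stimulated and 0 in both WT PBS libraries. It passed the filter on low counts through its KO libraries alone, so its call between the genotypes is a description only. It was at least 21.7-fold higher in KO with PBS (adjusted p = 0.0468), a call that was lost without any one of the 8 libraries (adjusted p up to 0.162). Iglc2 had 18 and 12 counts in KO stimulated, 0 and 12 in KO PBS, 5 and 8 in WT stimulated and 0 and 7 in WT PBS libraries, and its groups overlapped. Iglc3 had 18 and 12 counts in KO stimulated and 4 and 0 in KO PBS libraries, and 0 in all WT libraries. Iglc2 and Iglc3 shared an identical stretch of 79 bases, so their split is uncertain. Per kilobase of exon, lambda made up 3.53% and 4.29% of the light chain constant counts in KO stimulated libraries, 2.29% and 4.04% in KO PBS, 5.05% and 7.50% in WT stimulated and 0 and 4.14% in WT PBS.

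KO libraries held counts for more V genes than WT libraries and more V counts in all, and number and level cannot be told apart here. Of 348 annotated V genes, 72 and 69 had counts in KO stimulated libraries, 45 and 59 in KO PBS, 16 and 17 in WT stimulated and 11 and 10 in WT PBS. Their summed counts were 1157 and 1267 in KO stimulated libraries, 873 and 1054 in KO PBS, 180 and 225 in WT stimulated and 173 and 99 in WT PBS, so the libraries with fewer V genes were also those with fewer V counts to detect them. Among the 60 V genes of the group, 19 had counts in all 4 KO libraries, 37 had none in any WT library and 0 were absent from every KO library. KO libraries held 3929 of their counts and WT libraries 629. The sum was higher over the KO libraries for 56 and higher over the WT libraries for 4, which were Igkv3-1, Ighv9-4, Igkv7-33 and Ighv1-80. Ighv9-4 was the V gene with counts in all 4 WT libraries. These numbers describe genes chosen by their total and were not tested. The share of all genes with the same patterns was not worked out, so nothing is read from them.

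Of the V genes, 10 had counts in all 4 KO libraries and in no WT library. The share of all genes with that pattern was not worked out. The values of those named next are a description, since that pattern picked them out. The 10 were Igkv1-135, Igkv1-110, Igkv10-94, Igkv2-137, Igkv3-2, Igkv8-24, Ighv1-55, Ighv1-7, Ighv6-3 and Ighv1-12. Igkv1-135, whose sequence is shown above, had 40 and 127 counts in KO stimulated and 159 and 137 in KO PBS libraries. It was at least 52.0-fold higher in KO after stimulation and at least 107-fold higher with PBS. Igkv1-110 had 72 and 129 counts in KO stimulated and 35 and 41 in KO PBS libraries, at least 62.6-fold higher in KO after stimulation and at least 27.5-fold higher with PBS. Its near-identical neighbour Igkv1-117 had 21 and 35 counts in KO stimulated, 27 and 10 in KO PBS, 26 and 15 in WT stimulated and 3 and 0 in WT PBS libraries, which overlapped between the genotypes. Igkv2-137, which shared no 50-base stretch with another immunoglobulin gene, had 41 and 26 counts in KO stimulated and 48 and 71 in KO PBS libraries. It was at least 20.9-fold higher in KO after stimulation and at least 43.1-fold higher with PBS. Igkv10-94 had 19 and 56 counts in KO stimulated and 71 and 43 in KO PBS libraries, at least 23.4-fold higher in KO after stimulation.

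The 4 called genes among these 10 passed the filter on low counts through their KO libraries alone, so their calls are no support for the pattern, and the calls rested on few libraries. After stimulation, Igkv1-110 was lost without KO stimulated library 1 or 2 (adjusted p up to 0.0646), and Igkv1-135 without KO stimulated library 2 or any one KO PBS or WT stimulated library (up to 0.0706). Igkv10-94 and Igkv2-137 were lost without any one of the 4 KO libraries or the 2 WT stimulated libraries (up to 0.142 and 0.128). With PBS, Igkv1-135 was lost without any one KO PBS or WT PBS library (up to 0.117). Igkv1-110 and Igkv2-137 were lost without any one of the 4 KO libraries or the 2 WT PBS libraries (up to 0.123 and 0.175).

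Other V genes with high totals were the heavy chain genes Ighv1-26, Ighv3-6, Ighv1-55, Ighv1-7 and Ighv6-3 and the light chain genes Igkv10-96 and Iglv1. Ighv1-26 had 13 and 69 counts in KO stimulated, 64 and 72 in KO PBS, 0 in both WT stimulated and 0 and 14 in WT PBS libraries. Igkv10-96 had 50 and 54 counts in KO stimulated, 27 and 38 in KO PBS, 0 and 4 in WT stimulated and 8 and 0 in WT PBS libraries. Iglv1, the main lambda V gene, had 26 and 41 counts in KO stimulated, 10 and 27 in KO PBS, 16 and 15 in WT stimulated and 4 and 0 in WT PBS libraries. In CPM, Ighv1-26 and Igkv10-96 did not overlap between the genotypes and Iglv1 did.

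The most counted V gene was not the same in KO and WT libraries. Igkv3-1 (chromosome 6, 70703578 to 70704177) had 0 counts in both KO stimulated libraries and 12 and 11 in KO PBS libraries, against 61 and 81 in WT stimulated and 51 and 0 in WT PBS libraries. In the 3 WT libraries that held it, it took 33.9%, 36.0% and 29.5% of the V counts. It was at least 50.6-fold lower in KO than in WT stimulated cells, which did not pass (adjusted p = 0.127). Igkv1-110 led in both KO stimulated libraries, at 6.22% and 10.2% of V counts, Igkv1-135 in both KO PBS libraries, at 18.2% and 13.0%, and Ighv9-4 in WT PBS library 2, at 19.2%. Between pairs of KO libraries, 27 to 45 V genes were shared, which was 39.1% to 77.8% of either list. Between a KO and a WT library, 4 to 14 were shared, 8.89% to 20.3% of the KO list and 40.0% to 82.4% of the WT list. Between pairs of WT libraries, 3 to 10 were shared, 17.6% to 62.5% of either list.

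**Figure D2:**
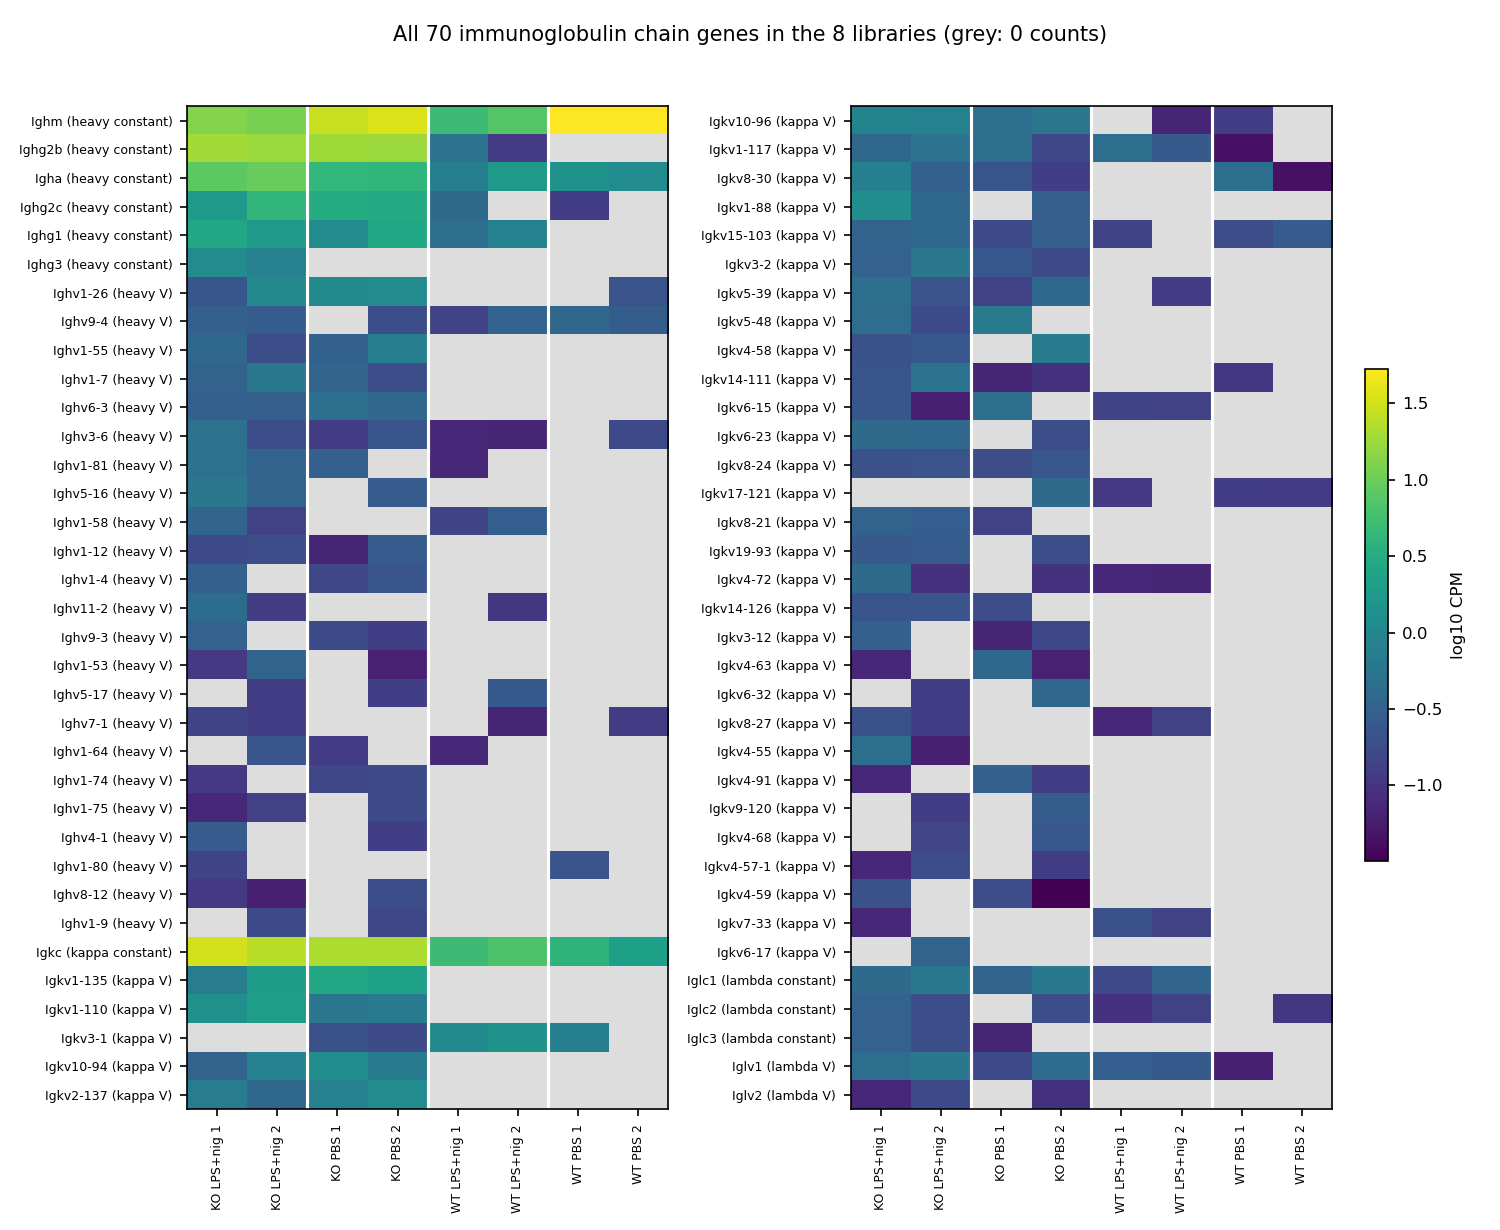
Level of all 70 genes (rows, in 2 panels) in the 8 libraries (columns, KO left and WT right), coloured by log10 CPM, with grey for 0 counts. The KO columns hold counts for 61, 58, 41 and 54 of the 70 genes, and the WT columns for 22, 22, 14 and 11.

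Ighm fell with stimulation in both genotypes, and few other chains were called in KO. Ighm fell by 1.36 ± 0.19 on the log2 scale in KO (adjusted p = 0.00129) and by 3.07 ± 0.20 in WT (adjusted p = 3.65e-05), and both calls held without any single library. The difference of the responses, KO minus WT, was 1.70 ± 0.26 and did not pass over all genes (adjusted p = 0.0648). Igha was higher in stimulated than in PBS libraries of KO by 1.05 ± 0.33 (adjusted p = 0.0438, up to 0.162 without any one of the 4 KO libraries or the 2 WT PBS libraries, each of which ended the call). In WT its log2 change was -0.04 ± 0.36 (adjusted p = 0.950), and the difference of responses was 1.09 ± 0.49 (adjusted p = 0.500). The log2 changes of Ighg2b, 0.02 ± 0.40 (adjusted p = 0.981), and of Igkc, 0.40 ± 0.28 (adjusted p = 0.317), did not pass in KO. Ighg3 passed the filter on low counts through its KO stimulated libraries alone, so it had to differ and its call is a description only. Ighg3 was counted after stimulation in KO and not with PBS, at least 39.1-fold higher (adjusted p = 0.0110, up to 0.0880 without KO stimulated library 1 or 2, which ended the call).

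In WT, several chains with no or few counts in PBS cells were counted after stimulation. Ighg1 was at least 28.7-fold higher (adjusted p = 0.00245), Ighg2b at least 14.4-fold higher (adjusted p = 0.0106) and Iglc1 at least 11.6-fold higher (adjusted p = 0.00631), and these held without any single library, with adjusted p up to 0.0363. Igkc was higher by 0.94 ± 0.30 on the log2 scale (adjusted p = 0.0426), a call that was kept without WT PBS library 1 and lost without any other (up to 0.193). Igkv1-117 was higher by 3.88 ± 1.19 (adjusted p = 0.0343, up to 0.110 without any one stimulated library or WT PBS library 2, each of which ended the call). Igkv8-30, at 0 in both WT stimulated libraries and 30 and 3 counts in WT PBS libraries, was at least 9.45-fold lower (adjusted p = 0.0409, up to 0.148 and lost without any one library other than WT PBS library 2). Ighv1-58 had 20 and 9 counts in KO stimulated and 8 and 17 in WT stimulated libraries, against 0 in all PBS libraries. It passed the filter on low counts through stimulated libraries alone, so its calls are a description only. It was at least 9.68-fold higher with stimulation in KO (adjusted p = 0.0331, up to 0.136) and at least 9.70-fold in WT (adjusted p = 0.0335, up to 0.121), and either call was lost in 6 of the 8 fits with a library left out.

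Over all tested genes, stimulation called 20.2% higher and 19% lower in KO and 20.6% higher and 20% lower in WT. Of the 47 immunoglobulin genes, 3 were called higher and 1 lower in KO. Many of the 47 had low counts in KO libraries and could hardly be called, so nothing is read from these numbers beside those shares. In WT, 6 were called higher and 2 lower, but 25 of the 47 had no counts in either WT group and could not be called. The WT calls are therefore not set against the share of all genes. The median log2 change of the immunoglobulin genes was 0.40 in KO (3 at a bound), against -0.03 over all genes. In WT it was 1.02 over the 22 genes with counts in either group (10 at a bound). The median over all genes, -0.01, left out no empty genes and used no bounds, so the 2 are not alike. Taken that way, the median of the 47 immunoglobulin genes in WT was 0. In the difference of responses, 0.103% of all genes were called higher and 0.395% lower. None of the 47 was called there by edgeR at an adjusted p under 0.05, while 7 had an unadjusted p under 0.05 and DESeq2 called 5.

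The classes of heavy chain were made up differently in each group. Per kilobase of exon, the 4 gamma genes took 49.4% and 52.4% of the heavy constant counts in KO stimulated libraries, 37.0% and 32.5% in KO PBS, 18.8% and 7.46% in WT stimulated and 0.331% and 0 in WT PBS. Igha took 15.5% and 17.4% in KO stimulated, 6.15% and 5.19% in KO PBS, 7.68% and 13.2% in WT stimulated and 1.89% and 1.50% in WT PBS libraries. Ighm took the rest, 35.1% and 30.3% in KO stimulated, 56.8% and 62.4% in KO PBS, 73.5% and 79.3% in WT stimulated and 97.8% and 98.5% in WT PBS libraries. Switched classes were thus most of the heavy chain level in the KO stimulated libraries and almost none of it in the WT PBS libraries.

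The V counts that accompany the constant counts separated Ighm in WT PBS cells from the rest. Heavy V genes together reached 97.7% and 80.8% of the heavy constant level per kilobase in KO stimulated libraries, 44.9% and 51.0% in KO PBS, 49.7% and 71.8% in WT stimulated, and 7.65% and 8.73% in WT PBS. The WT PBS libraries lay below all others. For kappa chains the same ratio showed no such gap, with 58.7% and 70.6% in KO stimulated, 68.4% and 68.8% in KO PBS, 65.8% and 50.8% in WT stimulated and 66.5% and 40.7% in WT PBS libraries. Light chain constant counts per kilobase were 3.07 and 2.38 times the heavy ones in KO stimulated libraries, 1.56 and 1.38 times in KO PBS, 2.71 and 2.79 times in WT stimulated and 0.269 and 0.146 times in WT PBS. Exon lengths join all annotated transcripts of a gene, with 2678 bases for Ighg2b and 1326 for Ighg2c. These ratios and the class shares above therefore depend in part on the annotation. Without Ighm, heavy V over heavy constant was 1.51 and 1.16 in KO stimulated, 1.04 and 1.36 in KO PBS, 1.87 and 3.47 in WT stimulated and 3.44 and 5.81 in WT PBS libraries. V counts are not split by class, so any that belong to IgM chains stay in this ratio although Ighm does not. The ratio is therefore not like the one with Ighm. The high Ighm counts of the WT PBS libraries thus stood beside few heavy V and few light chain counts. Whole-gene counts do not separate spliced, rearranged and unrearranged Ighm transcripts or the secreted and membrane forms, and which of them was counted was not tested.

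**Figure D3:**
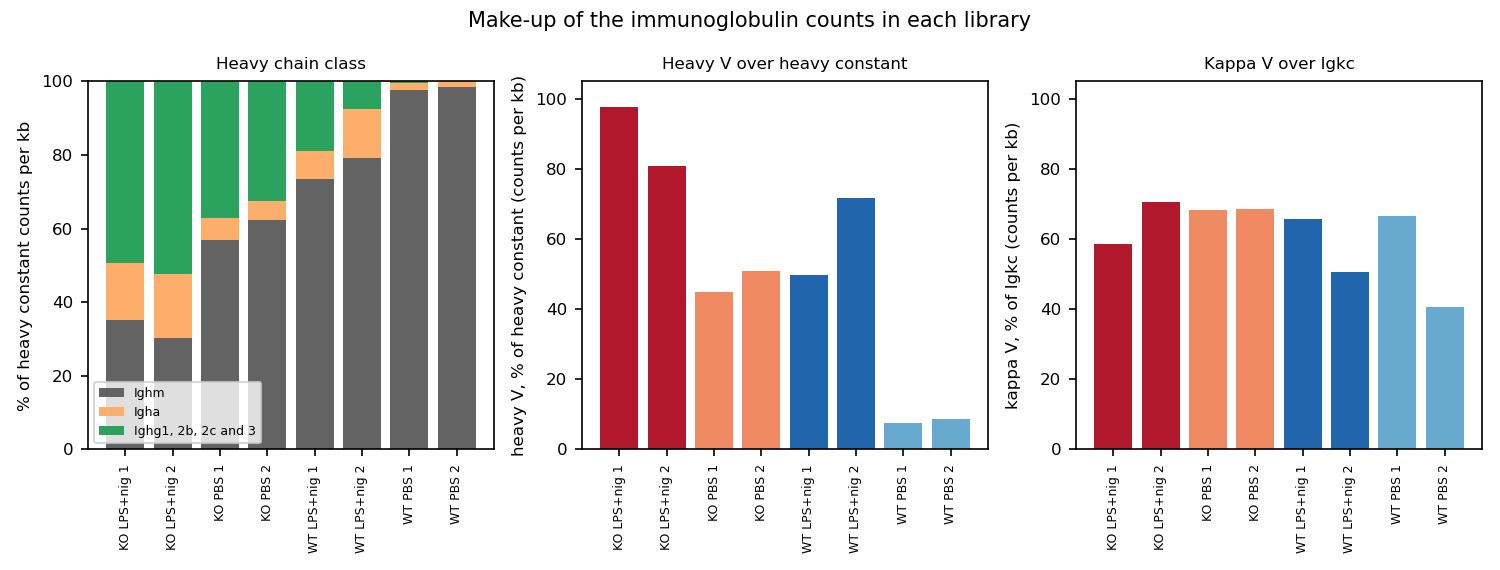
Make-up of the immunoglobulin counts in each library (x axis), per kilobase of exon. The left panel stacks the heavy chain classes as % of heavy constant counts, the middle panel gives heavy V genes as % of heavy constant genes and the right panel kappa V genes as % of Igkc. The middle bars fall to 7.65% and 8.73% in WT PBS libraries, while the right bars lie between 40.7% and 70.6% in all 8.

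Genes that mark plasma cells were read beside the chains, and of the 8 tested only Jchain was called between the genotypes. Jchain, which joins IgM and IgA into polymers and is made by antibody-secreting cells, had 121 and 170 counts in KO stimulated libraries and 110 and 109 in KO PBS libraries, against 18 and 23 in WT stimulated libraries and 12 and 22 in WT PBS libraries. All KO libraries lay above all WT libraries. The log2 difference was 2.72 ± 0.35 after stimulation (adjusted p = 0.00964) and 2.80 ± 0.35 with PBS (adjusted p = 0.0167). Per 100 Igkc counts there were 6.94 and 10.5 Jchain counts in KO stimulated, 8.79 and 8.18 in KO PBS, 6.43 and 5.91 in WT stimulated and 4.60 and 15.6 in WT PBS libraries. Mzb1, an endoplasmic reticulum chaperone of antibody assembly, had 0 and 8 counts in KO stimulated and 16 and 12 in KO PBS libraries, against 0 in both WT stimulated and 4 and 0 in WT PBS libraries. Tnfrsf17, the plasma cell receptor BCMA, had counts in KO PBS library 2 (8) and in WT PBS libraries (8 and 15) and 0 in the other 5. Pou2af1, a B lineage coactivator, had 15 and 8 counts in KO stimulated, 0 in both KO PBS, 4 and 4 in WT stimulated and 0 in both WT PBS libraries.

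Over the 8 tested of the 10 plasma cell genes read, the median log2 difference was 0.03 after stimulation and 0.27 with PBS. Derl3 had 5 to 16 counts in KO and 9 to 20 in WT libraries, Fkbp11 17 to 45 in KO and 14 to 31 in WT, and Eaf2 10 to 16 in KO and 10 to 14 in WT. Sdc1 (syndecan 1, CD138), Tnfrsf13b (TACI) and Tent5c, which are also used to mark plasma cells, were high in every library. Sdc1 stood at 336 ± 19.2 CPM in KO stimulated, 249 ± 44.1 in KO PBS, 340 ± 21.6 in WT stimulated and 258 ± 52.7 in WT PBS libraries (SD, n = 2 each), with log2 differences between KO and WT of -0.02 ± 0.17 after stimulation and -0.06 ± 0.17 with PBS. The summed level of the 10 genes, set by Sdc1, was 361 to 389 CPM in KO stimulated, 288 to 382 in KO PBS, 361 to 390 in WT stimulated and 282 to 378 in WT PBS libraries. Of 8 further genes that plasma cells share with macrophages, such as Xbp1 and Prdm1, 2 were called higher in KO after stimulation, the chaperone Creld2 by 0.46 ± 0.09 (adjusted p = 0.0361) and the oxidoreductase Txndc5 by 0.36 ± 0.07 (adjusted p = 0.0407). With PBS 1 was, the surface enzyme Cd38 by 1.27 ± 0.09 (adjusted p = 0.00204), and 0 were lower in either. The part of plasma cell RNA in the immunoglobulin counts was not tested.

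Genes of B cells and their precursors were mostly at or near 0. Of 16 B cell genes, Fcer2a, a low-affinity IgE receptor, was at 0 in all 8 libraries, and Ms4a1 (CD20) had 12 and 0 counts in KO stimulated, 0 and 4 in KO PBS and 0 in all WT libraries. Cd79a, a signalling chain of the B cell receptor, had 24 and 30 counts in KO stimulated and 8 and 11 in KO PBS libraries, against 0 in both WT stimulated and 7 and 8 in WT PBS libraries. It was higher in KO than in WT stimulated cells (adjusted p = 0.0264), the single call among the 9 tested B cell genes there. Cd79a passed the filter on low counts through its KO libraries alone, so that call is a description only. Cd79b, its partner, had 41 and 30 counts in KO stimulated, 12 and 14 in KO PBS, 26 and 19 in WT stimulated and 4 and 7 in WT PBS libraries and passed in neither comparison (adjusted p = 0.645 and 0.373). With PBS the single call was Cd22, an inhibitory receptor, by 1.27 ± 0.10 (adjusted p = 0.00273), at 88.2 ± 6.79 CPM in KO and 36.7 ± 3.00 in WT. The summed B cell level, mostly Cd22, was 27.3 to 28.2 CPM in KO stimulated, 90.4 to 98.3 in KO PBS, 19.8 to 21.5 in WT stimulated and 42.2 to 44.6 in WT PBS libraries. Of 8 precursor genes, Vpreb2, Igll1, Rag1 and Dntt were at 0 in every library. Il7r, the single one tested, was lower in KO by both comparisons, with log2 differences of -1.09 ± 0.07 after stimulation (adjusted p = 0.00133) and -0.49 ± 0.07 with PBS (adjusted p = 0.0270).

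**Figure D4:**
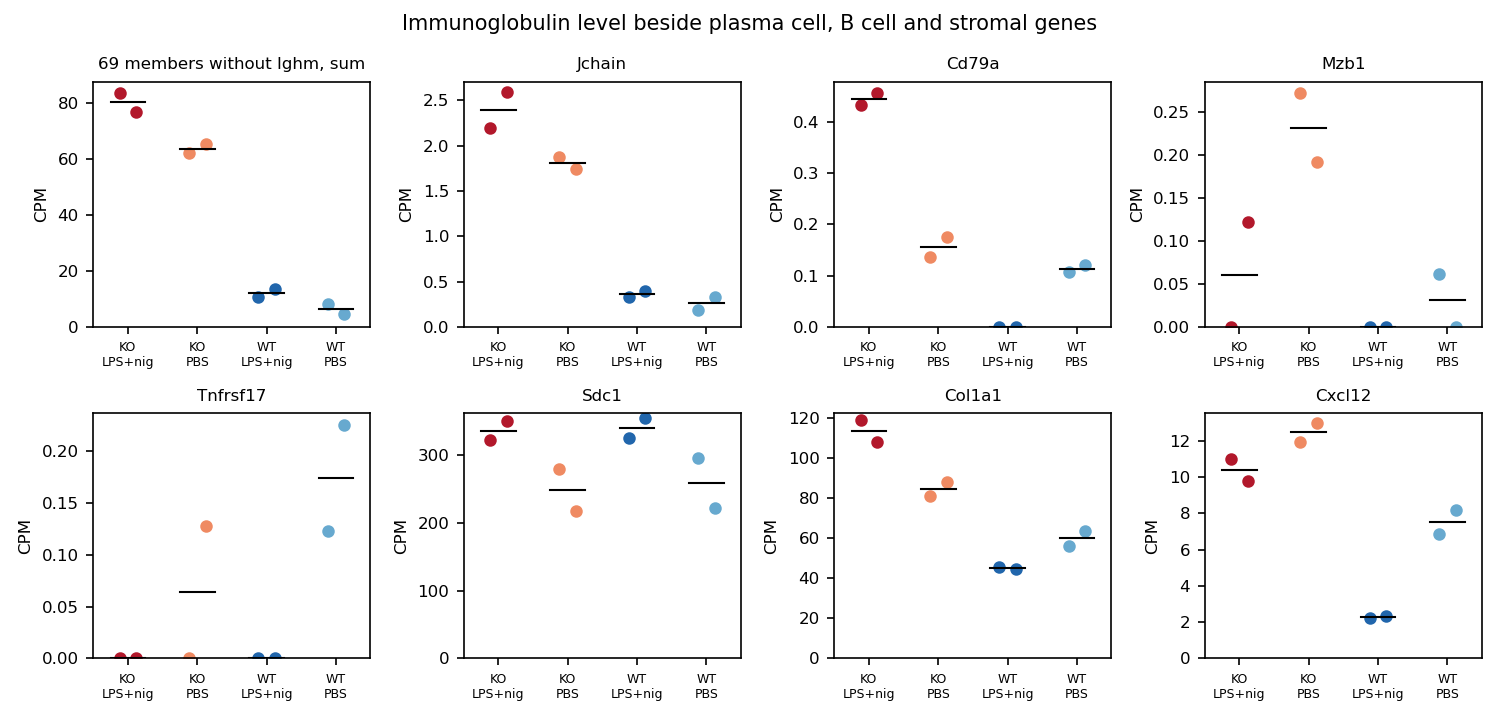
Summed level of the 69 genes other than Ighm and levels of 7 marker genes in CPM (y axis, its own scale per gene, starting at 0) in each library, with 2 points per group and a line at the mean. Jchain and the summed level have all KO libraries above all WT libraries, whereas Sdc1 is high in all 8 and Tnfrsf17 is counted mainly in WT PBS libraries.

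Other cell types were read the same way, since a macrophage culture can hold cells of the bone marrow it came from. Fibroblast and stromal genes were higher in KO, 6 of 7 tested after stimulation and 2 of 7 with PBS, and 0 were lower, with median log2 differences of 1.43 and 0.66. Their summed level was 325 to 362 CPM in KO stimulated, 271 to 290 in KO PBS, 125 to 128 in WT stimulated and 173 to 195 in WT PBS libraries. Cxcl12, a chemokine of marrow stroma that holds plasma cells in their niche, was higher in KO stimulated cells by 2.18 ± 0.15 (adjusted p = 0.00133), and Col1a1, a collagen chain, by 1.33 ± 0.09 (adjusted p = 0.00147). Of the T and NK cell genes 4 of 12 were tested, and Cd247 was called after stimulation, higher in KO. Of the neutrophil genes 7 of 10 were tested, of the erythroid genes 3 of 8 and of the mast cell and basophil genes 4 of 8, with 0 called between genotypes by edgeR. At an unadjusted p under 0.05 these lists held 0 genes after stimulation and, with PBS, 1 neutrophil gene and 1 mast cell or basophil gene. Of 12 macrophage genes, 1 was called higher and 3 lower in KO in each comparison, and their summed level was 30699 to 31907 CPM in KO stimulated, 33339 to 34459 in KO PBS, 48544 to 51611 in WT stimulated and 47779 to 50918 in WT PBS libraries. Lyz2, whose promoter drives Cre, made up most of that gap, at 15074 ± 467 CPM in KO stimulated, 17145 ± 522 in KO PBS, 33322 ± 1556 in WT stimulated and 34072 ± 1878 in WT PBS libraries. The part of other cells in the immunoglobulin counts was not tested.

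None of the tested receptors through which macrophages bind antibody was called between the genotypes by edgeR. Of 11 receptor genes, 7 were tested. At an unadjusted p under 0.05 there were 3 after stimulation and 3 with PBS, and the smallest adjusted p was 0.117 and 0.176. Fcgr1, the high-affinity IgG receptor, stood at 869 ± 1.36 CPM in KO stimulated, 163 ± 3.33 in KO PBS, 766 ± 74.4 in WT stimulated and 136 ± 0.0785 in WT PBS libraries. Stimulation raised 5 of the 7 and lowered 2 in each genotype.

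The V genes were thinly counted. Of the 560 values of 70 genes in 8 libraries, 277 were 0 and 3 lay between 1 and 3. Low counts of all genes piled up at 4, 8 and 12, and further on at 15 and 19. In each library 1048 to 1171 genes had a count of 4, against 326 to 354 with a count of 3 and 161 to 210 with a count of 5, and 472 to 577 had a count of 8, against 212 to 242 with 7 and 115 to 143 with 9. A count of 12 was held by 241 to 272 genes, against 180 to 213 with 11 and 100 to 118 with 13. The next peaks stood at 15 and 19 and not at 16 and 20. A count of 15 was held by 153 to 207 genes, against 106 to 125 with 14 and 122 to 148 with 16. A count of 19 was held by 142 to 169 genes, against 86 to 122 with 18 and 62 to 78 with 20. Of the 168 immunoglobulin values from 1 to 20, 25 were 4, 29 were 8 and 16 were 12. Further on, 8 were 15 and 2 were 16, and 10 were 19 and 2 were 20. Intervals and limits at 3 counts treat each count as independent and cover counting error only. With so few values between 1 and 3, a limit of 3 counts may be too low, and the fold bounds that use it too high. The origin of the pattern was not tested.

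**Figure D5:**
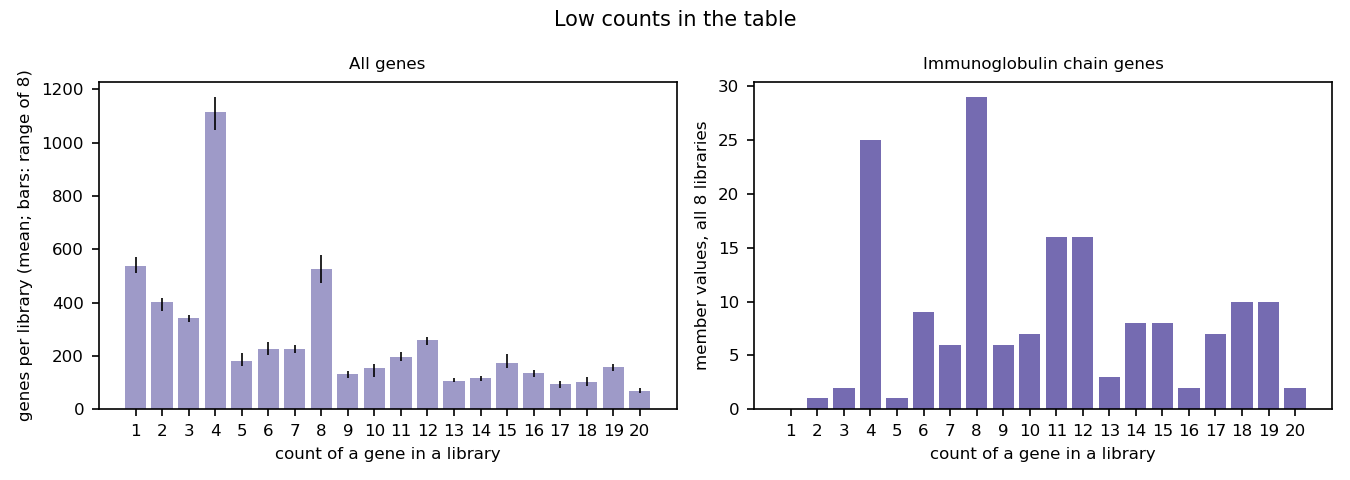
Number of genes (left, mean over the 8 libraries with the range as bars) and of values of the 70 immunoglobulin genes (right, summed over libraries) at each count from 1 to 20 (x axis). For all genes peaks stand at 4, 8 and 12, where 1048 to 1171, 472 to 577 and 241 to 272 genes per library are found. Further peaks stand at 15 (153 to 207 genes) and 19 (142 to 169), and none at 16 or 20.

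Other annotated genes overlap 6 of the chain genes, and none took many counts. The antisense gene 2010309G21Rik, on the opposite strand of Iglc1, Iglc3 and Iglv1, had 3 counts in KO stimulated library 1 and 0 in the others. Gm42889, which overlaps Igkv2-137, and Iglj2, which overlaps Iglc2, had at most 1 count in any library, and Gm30211, which overlaps Igkc, had 0 in all. Whether the libraries kept the strand is not stated, so reads of overlapping genes cannot be told apart.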

How the data were processed

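Per the labels' protocols, RNA was extracted with Trizol and a commercial kit gave the 8 libraries. The submitters' processing notes name Trimmomatic, Bowtie2 and edgeR with the mouse genome mm10, and neither the counting tool nor its annotation is given in the sources used here. The values are whole-number counts per gene as deposited by the authors, with no normalization. Symbols, coordinates, exon lengths and sequences were taken from GENCODE M21 (GRCm38, the same assembly as mm10), which gave a symbol to 55141 of 55401 genes.

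A single model with a term for each of the 4 groups covered the 8 libraries. Differences were tested by quasi-likelihood in edgeR 4.0.16 (R 4.3.3) with TMM factors of 0.888 to 1.068, edgeR's filterByExpr (minimum count 10, minimum total 15) and Benjamini-Hochberg adjustment over all 17470 tested genes at 0.05. CPM used the TMM-scaled library sizes. A fold against a group at 0 is a lower bound, with that group set to 3 counts in all. Intervals of shares are exact binomial (Clopper-Pearson). The test was tried on simulated counts first.

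The members, marker lists and tests were chosen with earlier results of these data known. Named genes were all constant genes, the 6 V genes of each class with the highest totals, the 3 highest in each library, the 4 largest called changes per comparison, the plasma cell markers and up to 4 genes of each other list. Igkv1-117, Igkv1-88 and the V genes given only by name, together with Cd79a, Cd79b, Fcer2a and other markers at or near 0, were named after their values were seen. A gene of the B cell list is not reported here. Alternatives were DESeq2 1.42.0, DESeq2's size factors, library size alone, no filter, at least 5 CPM in 2 libraries, the replicate number as a block, each library left out in turn, and totals of at least 10 or 100 for membership. Plots used matplotlib 3.10.9 (Python 3.11.15).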

Additional observations from a re-analysis of the deposited data

How the results depend on the processing

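No result reversed its direction under the alternatives run. The numbers of immunoglobulin genes called were 8 in KO against WT after stimulation, 7 with PBS, 4 for stimulation in KO, 8 for stimulation in WT and 0 in the difference of responses. In the same order they became 4, 2, 2, 3 and 1 with a filter of at least 5 CPM in 2 libraries, which left 4 of these genes to test. DESeq2 called 19 after stimulation and 5 in the difference of responses, and library size alone called 1 in the difference. Leaving out each library in turn gave 2 to 8, 1 to 7, 1 to 4, 4 to 9 and 0 to 1 calls. With the replicate number as a block, 5 were called after stimulation, 3 with PBS, 2 for stimulation in KO and 7 for stimulation in WT. Deviations of libraries with the same number correlated at -0.015 to 0.101 between groups. No pairing by number was seen, but with 2 libraries per group this cannot exclude shared mice or cultures. Of the 27 calls of single genes, 17 passed with the block, 27 with DESeq2's size factors, 26 with no filter, 25 with library size alone and 11 to 18 with a library left out. The cause was not tested. Membership was 92 genes at a total of at least 10 and 21 at a total of at least 100. The summed level in WT PBS libraries was 62.2 and 59.0 CPM with library size alone, against 59.6 and 57.6. Of the 560 values of the 70 genes, 277 were 0, and near-identical V genes may exchange counts.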

Other observations

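The V genes with counts came from a part of the V families. Of 93 annotated Ighv1 genes, 30 had counts and 13 were among the 70, with 915 counts over the 8 libraries. The 4 Igkv1 genes of the group and 1 other held 1007 counts, the highest sum of any V family. Igkv4 had 12 of 33 genes with counts but 289 counts in all, and Igkv13, with 16 pseudogenes among its 18 genes, had none. All 4 Igkv6 genes with counts (of 9 annotated) were in the group, with 173 counts.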
